A study of Osmanthus fragrans with 6 samples.

Results

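Among the petal transcripts of Osmanthus fragrans var. semperflorens, 19 were lower at full bloom of the second flowering round than in 4 other deep libraries at once. The libraries were full bloom of round 2 (full 2), which is set here against full bloom, late full bloom and abscission of round 1 (full 1, late full 1, abscission 1) and the initial stage of round 2 (initial 2). A transcript was a member when its level in full 2 was at least 3-fold below each of those 4 libraries and each of the 4 held at least 3 CPM, where CPM is the count scaled to a common library total (counts per 1000000). Of 96596 assembled transcripts, 13476 had 3 CPM in all 4 libraries, and the 19 members were 0.141% of these. Members were thus chosen by their measured levels in these 5 libraries, and the initial stage of round 1 (initial 1) took no part in the choice. Every fold between full 2 and the 4 libraries is therefore a description of what was chosen and carries no test.

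Sweet osmanthus of this variety blooms several times in a season, and the study concerned petal colour and carotenoid genes. Petals came from trees under natural conditions in September, with no treatment, and all 6 groups share that variety and tissue. Each group was 1 library made from 5 pooled replicates, so there is no replicate error, and the intervals given are 95% exact intervals that cover counting error only. Stages were collected on different dates, so stage, round and date cannot be told apart, and neither can fewer cells of a type and less RNA per cell.

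Petals of this kind open, colour through plastid pigments such as carotenoids, release scent, and are then shed through an abscission layer at their base. Messenger RNA follows that course: transcripts for growth and pigment give way to those for senescence and detachment. Full 2 and the round 1 stages come from petals of different flowering rounds. A low level in full 2 beside higher levels in round 1 therefore does not give the course within a petal. The deposited table lists assembly IDs without names or sequences of genes, so no role can be given for any member, and carotenoid genes could not be looked up. In an ID such as c158841_g5_i1, c is the assembly component, g the assembly gene and i the isoform. Counts grow with transcript length, which is not given, so levels are compared mainly across libraries. Where transcripts are set beside each other by CPM, the order can also reflect their lengths.

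The 5 deep libraries held 17826689 to 39119103 counts, and full 2 held 19240153. Initial 1 held 107466 counts, so that 1 count there equals 9.31 CPM. The members had 12 to 150 counts in full 2 and 57 to 3441 counts in each of the 4 libraries they were set against. None was at 0 counts in full 2. The losses were reductions to a measurable remainder.

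Most of the 13476 transcripts, 12168, were not 3-fold lower in full 2 than in any of the 4 libraries. Full 2 was at least 3-fold below initial 2 in 6.31% of the 13476 transcripts, below full 1 in 3.71%, below late full 1 in 2.46% and below abscission 1 in 2.15%. A further 172 transcripts were 3-fold lower against 3 of the 4 libraries. Of these, 161 missed the rule on abscission 1, 7 on full 1, 2 on late full 1 and 2 on initial 2. Most transcripts that were low in full 2 against both bloom stages of round 1 and initial 2 thus stood at less than 3 times their full 2 level at abscission. The members are those that still held at least 3 times that level at the abscission stage.

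**Figure D1:**
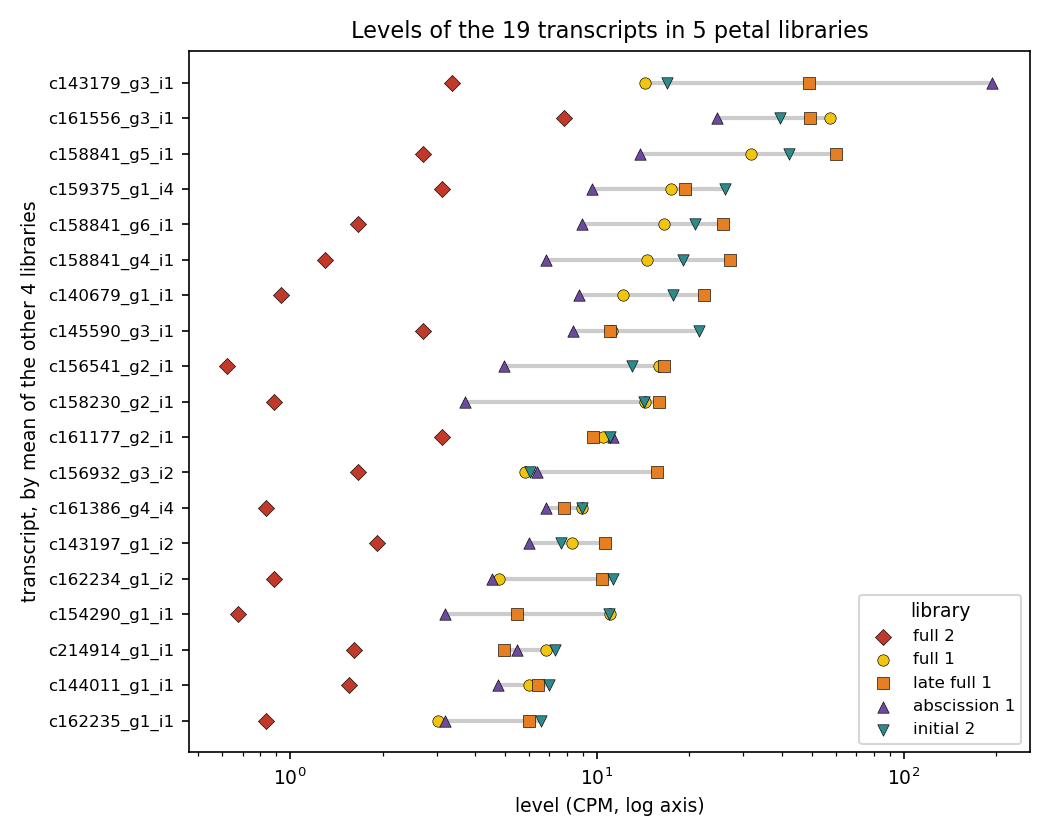
Level of each of the 19 transcripts in 5 libraries, 1 point per library, in CPM on a log axis, with a grey bar from the lowest to the highest of the 4 libraries other than full 2. Full 2 lies left of every bar by construction. The bars of c161177_g2_i1 and c161386_g4_i4 are short and that of c143179_g3_i1 is the longest of the 19.

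The depth of the loss varied among members. Over the 19, full 2 stood at a median of 11.4% of the mean level of the 4 libraries, with a range from 4.95% to 29.5%. With the 3 members of component c158841 summed and counted once, the median was 17.2%. Expressed as a fold, the mean of the 4 was 3.39 to 20.2 times the full 2 level, with a median of 8.76. It was 3 to 5 times that level in 5 members, 5 to 10 times in 6, 10 to 15 times in 5 and above 15 times in 3. Against the lowest of the 4 libraries, the stricter measure, full 2 was 3.06-fold to 9.35-fold lower, with a median of 4.19. On that measure 9 members lay within 3 to 4-fold, next to the threshold, 7 lay between 4 and 6-fold, and 3 lay above 6-fold.

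The widest gap to the lowest of the 4 libraries was that of c140679_g1_i1. It stood at 0.936 CPM in full 2, on 18 counts, against 12.2 CPM in full 1, 22.3 in late full 1, 8.75 in abscission 1 and 17.7 in initial 2. Full 2 was 9.35-fold below abscission 1, the lowest of the 4 (95% interval 5.73 to 16.2). Thus c140679_g1_i1 had 156 to 693 counts in each of the 4 libraries and was sparse in full 2.

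Transcript c161386_g4_i4 stood at 0.832 CPM in full 2, against 8.94 in full 1, 7.83 in late full 1, 6.84 in abscission 1 and 8.92 in initial 2. It was 8.23-fold lower in full 2 than in abscission 1 (95% interval 4.87 to 14.9). Its levels in those 4 libraries lay within 1.31-fold of each other by CPM, and full 2 lay well below them. No stage after full 2 was sampled in round 2. The only member with a narrower spread over the 4, c161177_g2_i1, had a shallower gap.

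Transcript c156541_g2_i1 had the lowest level of any member in full 2, 0.624 CPM on 12 counts. It stood at 15.9 CPM in full 1, 16.5 in late full 1, 4.99 in abscission 1 and 13.0 in initial 2. The mean of the 4 was 20.2 times the full 2 level, while the fold against abscission 1 alone was 8.0 (95% interval 4.36 to 16.1). Here the round 1 course itself ended in a decline, and full 2 lay below the end of that decline.

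Transcripts c158230_g2_i1 and c154290_g1_i1 showed that shape with a smaller margin at its end. The level of c158230_g2_i1 was 0.884 CPM in full 2, against 14.3 in full 1, 15.9 in late full 1, 3.70 in abscission 1 and 14.2 in initial 2. That of c154290_g1_i1 was 0.676 CPM in full 2, against 11.0 in full 1, 5.48 in late full 1, 3.20 in abscission 1 and 11.0 in initial 2. Full 2 lay 4.19-fold below abscission 1 for c158230_g2_i1 (95% interval 2.43 to 7.62) and 4.73-fold for c154290_g1_i1 (2.56 to 9.42). Both intervals reach below 3, so their place inside the threshold at abscission is within counting error.

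Transcript c162234_g1_i2 stood at 0.884 CPM in full 2, against 4.80 in full 1, 10.4 in late full 1, 4.54 in abscission 1 and 11.2 in initial 2. Full 2 was 5.14-fold below abscission 1 (95% interval 3.02 to 9.26). In round 2 its full bloom level was the lowest of the 5 deep libraries, against the highest of the 5 at the initial stage.

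**Figure D2:**
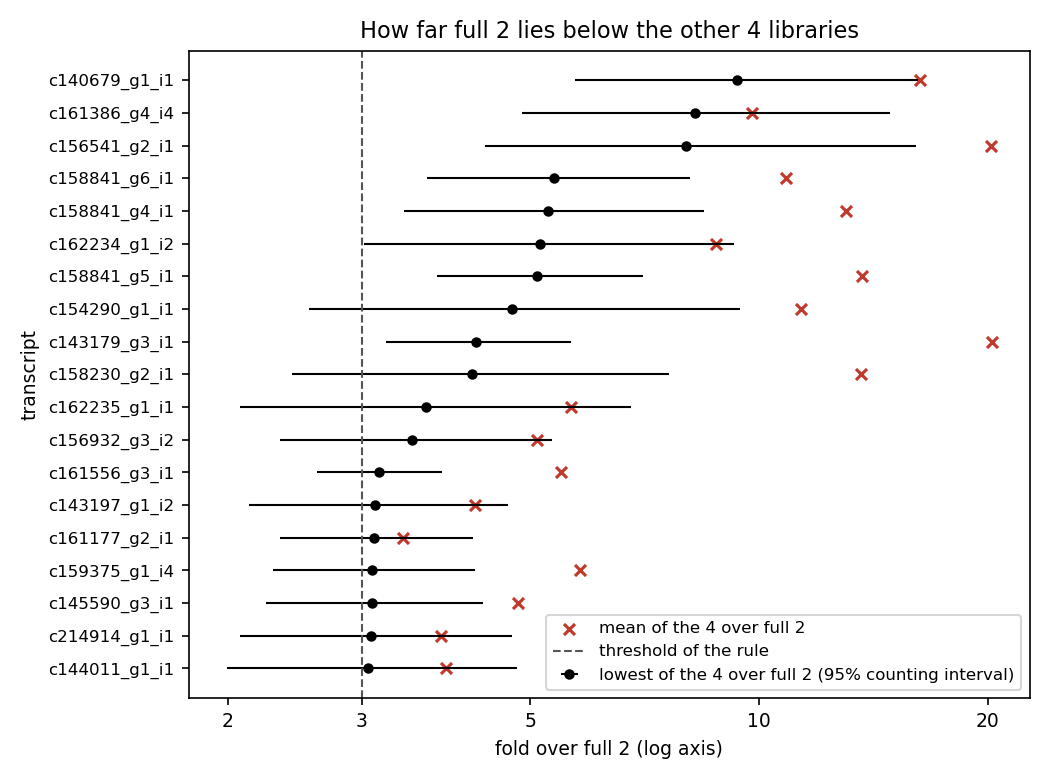
Fold by which the lowest of the 4 libraries exceeded full 2 (black points, with 95% exact counting intervals) and fold of their mean over full 2 (red crosses), per transcript, on a log axis with the threshold of 3 dashed. In 8 of the 19 transcripts the whole interval lies above 3, and c144011_g1_i1 at 3.06 lies closest to the threshold.

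For 8 of the 19 members the intervals against all 4 libraries lay wholly above 3-fold. They were c140679_g1_i1, c161386_g4_i4, c156541_g2_i1, c162234_g1_i2, c143179_g3_i1 and the 3 transcripts of component c158841. For the other 11 the interval against the lowest library included 3. All 19 had all 4 intervals above 1, which the threshold nearly fixes at these counts. The interval against the lowest library is that of a value picked for being lowest, so it is narrower than the choice warrants.

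The shallowest members sat at the edge of the rule. Transcript c144011_g1_i1 stood at 1.56 CPM in full 2, against 6.01 in full 1, 6.40 in late full 1, 4.77 in abscission 1 and 6.98 in initial 2. The fold against abscission 1 was 3.06 (95% interval 2.0 to 4.8). Just outside, c162222_g2_i1 stood at 1.04 CPM in full 2 and 3.03 in abscission 1, a fold of 2.91 (95% interval 1.72 to 5.14). The counts do not separate these neighbours on either side of the threshold.

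Among transcripts with 10 CPM or more in each of the 4 libraries, 3 of 8361 were members. They were c158841_g5_i1, c143179_g3_i1 and c161556_g3_i1. The closest transcript outside at that level was c162192_g1_i1, at 5.82 CPM in full 2, against 158 in full 1, 161 in late full 1, 16.5 in abscission 1 and 130 in initial 2. It missed the rule on abscission 1 alone, by a fold of 2.84, although full 2 held 5.01% of the mean of the 4. Next came c144686_g1_i1, with 8.73 CPM in full 2 and 24.0 in abscission 1, a fold of 2.74. No member averaged 100 CPM or more over the 4 libraries, where 1901 of the 13476 transcripts did, and 16 of the 19 lay below the median average of 25.7 CPM.

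Levels over the round 1 stages were not particularly flat. The ratio of the highest to the lowest level in full 1, late full 1 and abscission 1, called the round 1 range, had a median of 2.33 over the 19 members and 1.80 over all 13476 transcripts. It was at most 1.5 in 5 of 19 members, against 31.7% of all transcripts, and at most 2 in 7 members, against 59%. At least a 4-fold range was found in 3 members, against 10.7%. Restricting the 13476 to the 10350 with an average level within that of the members gave a median of 1.77. These are descriptions of 19 members, of which 3 share a component, and no test was made.

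The 5 flattest members were c161177_g2_i1, c161386_g4_i4, c145590_g3_i1, c144011_g1_i1 and c214914_g1_i1, with ranges of 1.16 to 1.37. Transcript c161177_g2_i1 stood at 3.13 CPM in full 2, against 10.5 in full 1, 9.72 in late full 1, 11.3 in abscission 1 and 11.0 in initial 2. Its round 1 range was 1.16 (95% interval 0.959 to 1.40), so the interval of that range included 1. Full 2 was 3.11-fold below late full 1, its lowest (95% interval 2.34 to 4.20). By CPM its level was similar in full 1, late full 1, abscission 1 and initial 2. The range is wider with TMM, where abscission 1 has a factor of 0.711 and full 1 one of 1.06. Initial 1, with 2 counts, does not resolve the start of round 1. The counts of c161177_g2_i1 were not all whole, with 60.16 in full 2. Neither were those of c161177_g1_i1 of the same component, with 380.84 in full 2. How reads were divided between them is not known, and the intervals do not cover it. By CPM c161177_g1_i1 stood at 19.8 in full 2, 35.2 in full 1, 30.8 in late full 1, 9.93 in abscission 1 and 27.7 in initial 2.

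Transcript c145590_g3_i1 was flat from full 1 to abscission 1 but not in round 2. It stood at 2.70 CPM in full 2, against 11.2 in full 1, 11.0 in late full 1, 8.36 in abscission 1 and 21.5 in initial 2. Transcript c214914_g1_i1 stood at 1.61 CPM in full 2, against 6.82 in full 1, 4.98 in late full 1, 5.50 in abscission 1 and 7.29 in initial 2. Both lay near the threshold, at 3.09-fold below their lowest library. Of the 5 flattest members, c161386_g4_i4 alone had an interval against its lowest library wholly above 3-fold.

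**Figure D3:**
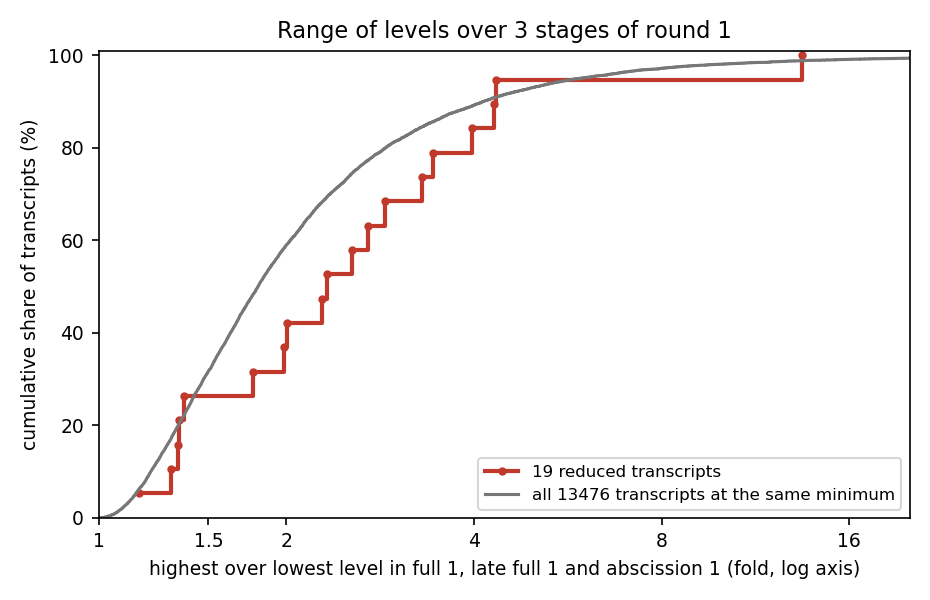
Cumulative share (%) of the 19 reduced transcripts (red) and of all 13476 transcripts at the same minimum level (grey) by the round 1 range, the highest over the lowest level in full 1, late full 1 and abscission 1, on a log axis. The medians are 2.33 for the 19 and 1.80 for all, and c143179_g3_i1 lies far to the right at 13.5.

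The widest round 1 range belonged to c143179_g3_i1. It stood at 3.38 CPM in full 2, against 14.3 in full 1, 49.0 in late full 1, 193 in abscission 1 and 16.9 in initial 2. Its range was 13.5 (95% interval 11.9 to 15.2), from a climb at each step from full 1 to abscission 1. Full 2 was 4.25-fold below full 1 (95% interval 3.23 to 5.65) and 57.1-fold below abscission 1. This was the only member that was 2-fold higher in abscission 1 than in late full 1. From full 1 to abscission 1 its course was a climb, and in round 2 full bloom was lower than the stage before it, as the rule requires. Initial 1 stood at 27.9 CPM on 3 counts, and full 1 over initial 1 was 0.514 (95% interval 0.174 to 2.51). The start of round 1 is thus not resolved for this transcript.

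After c143179_g3_i1, the 4 widest ranges all had abscission 1 as the lowest stage. They were 4.34 in c158841_g5_i1, 4.30 in c158230_g2_i1, 3.97 in c158841_g4_i1 and 3.44 in c154290_g1_i1. In the first 3 of these the peak was late full 1, while c154290_g1_i1 peaked in full 1 and was lower at each later stage.

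On the CPM scale, lower levels at abscission than at late full bloom were frequent among the members. Abscission 1 was at least 2-fold below late full 1 in 10 of the 19, against a background of 13% of the 13476 transcripts. The count was 5 with TMM scaling (background 6.24%), 5 with DESeq2 scaling (6.25%) and 8 with upper-quartile scaling (8.93%). Each of these counts includes the 3 members of component c158841, which may not be separate genes. Abscission 1 was at least 2-fold below full 1 in 6 members (background 27%) and 2-fold above it in 1 (background 8.27%). The 6 became 3 with TMM (background 12%), DESeq2 (10.4%) and upper-quartile scaling (14.7%). The median ratio of abscission 1 to late full 1 was 0.499 in the members and 0.845 in all transcripts.

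Late full 1 was at least 2-fold above full 1 in 3 members (background 4.91%) and 2-fold below in 1 (background 9.82%). The 3 were c143179_g3_i1, c156932_g3_i2 and c162234_g1_i2, and the 1 was c154290_g1_i1 at a ratio of 0.498. Transcript c156932_g3_i2 had 1.66 CPM in full 2, against 5.81 in full 1, 15.7 in late full 1, 6.39 in abscission 1 and 6.03 in initial 2. It thus had a single high point at late full bloom, and its other 3 levels were close together. Late full 1 was 2-fold above full 1 in 7 members with TMM (background 6.91%), DESeq2 (8.1%) and upper-quartile scaling (7.12%). The call of c154290_g1_i1 was lost with each of the 3, which left 0 members 2-fold lower (background 5.81%, 4.56% and 5.51%).

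By CPM, late full 1 was the highest of the 4 libraries for 8 members (background 14%), initial 2 for 6 (39%), full 1 for 3 (29.9%) and abscission 1 for 2 (17.1%). The lowest was abscission 1 for 14 members (background 54.6%), full 1 for 3 (11.9%) and late full 1 for 2 (17.4%). Initial 2 was the lowest for none of the 19 by CPM, against 16.1% of all transcripts. The TMM factors were 0.711 for abscission 1 and 1.11 for initial 2, so that scaling raises the first and lowers the second. These counts of the highest and lowest library therefore hold for CPM only and were not recomputed. Initial 2 was at least 2-fold above full 1 in 2 members (background 5.13%), c162234_g1_i2 and c162235_g1_i1, and 2-fold below it in none (background 5.72%). The median ratio of initial 2 to full 1 was 1.16 in the members and 1.02 in all transcripts, and the share of members past 2-fold was close to the background.

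The remaining members followed the same outline. Transcript c159375_g1_i4 had 3.12 CPM in full 2, against 17.5 in full 1, 19.3 in late full 1, 9.65 in abscission 1 and 26.1 in initial 2. Transcript c143197_g1_i2 had 1.92 CPM in full 2, and its other 4 levels ran from 6.0 in abscission 1 to 10.6 in late full 1. Transcript c162235_g1_i1 had 0.832 CPM in full 2, and its other 4 levels ran from 3.03 in full 1 to 6.57 in initial 2. All 3 lay within 4-fold of full 2 at their lowest library, and their intervals included 3-fold.

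Initial 1 gives a level that the rule did not use. The 19 members held 36 counts there, or 335 CPM in sum (95% interval 235 to 464). The 3 transcripts of component c158841, which may not be separate genes, supplied 11 of these counts, or 102 CPM. The sum of the 19 was 38.2 CPM in full 2 (35.5 to 41.1), and it was 271 in full 1, 373 in late full 1, 334 in abscission 1 and 308 in initial 2. At the depth of initial 1, the level of full 2 would give 4.11 counts and that of the other 4 libraries 29.1 to 40.1. The summed level in initial 1 was thus within the range of the 4 libraries and above full 2, where low values were selected. With TMM scaling the sum was 221 in initial 1 and 44.0 in full 2, against 257 in full 1, 409 in late full 1, 470 in abscission 1 and 277 in initial 2. On that scale initial 1 lay below the 4 libraries and 5.04-fold above full 2, where CPM gave 8.77-fold (95% interval 6.09 to 12.3).

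**Figure D4:**
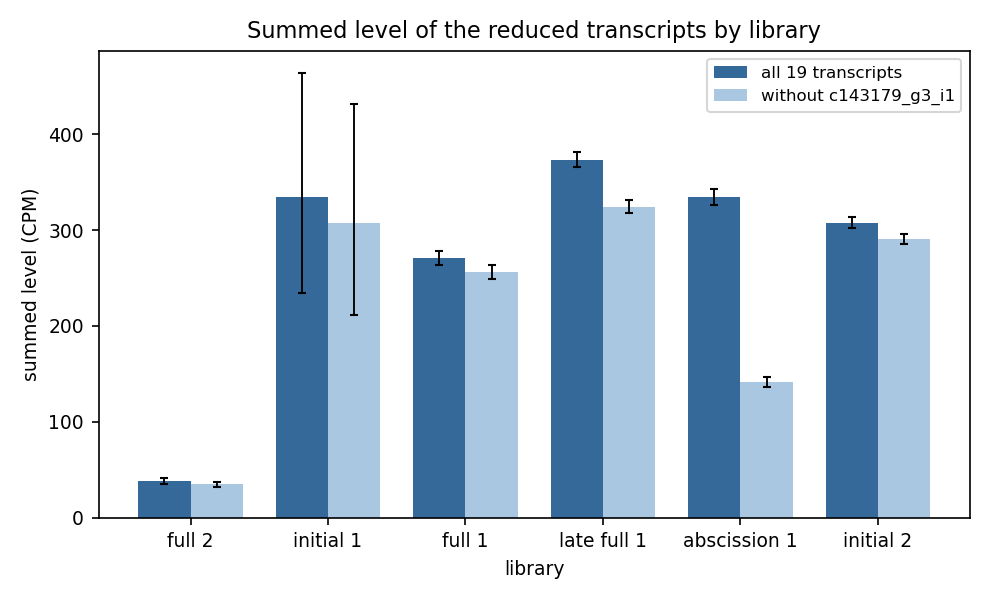
Summed level (CPM) of the 19 reduced transcripts in each library (dark bars) and of the 18 without c143179_g3_i1 (light bars), with 95% exact Poisson intervals on the summed counts. Full 2 stands at 38.2 CPM, initial 1 at 335 with a wide interval, and the abscission 1 bar drops to 141 without that 1 transcript.

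The sum in abscission 1 rested on 1 member. Transcript c143179_g3_i1 supplied 57.7% of it, and without this transcript abscission 1 held 141 CPM. The other sums without it were 34.8 in full 2, 307 in initial 1, 256 in full 1, 325 in late full 1 and 291 in initial 2. As a group, the other 18 were therefore lower in abscission 1 than in full 1 or late full 1, and lowest in full 2.

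Single members were barely resolved in initial 1. At the average of the 4 libraries the largest expected count there was 7.34, so none reached the 10 counts that single comparison called for. Counts were found for 12 of the 19 members (background 82.6% of the 13476 transcripts with at least 1 count). That background is not matched for level. The median average over the 4 libraries was 12.0 CPM in the members and 25.7 CPM in the 13476. The highest counts of members in initial 1 were 6 for c158841_g5_i1, 5 for c145590_g3_i1 and 4 for c161386_g4_i4. The 7 members at 0 counts averaged 4.70 to 15.2 CPM in the 4 libraries, under the 27.9 CPM that 0 counts allow, so a lower level in initial 1 was not detectable for any of them. In 9 members the interval of initial 1 over full 2 lay above 1 (background 15.1%). Full 2 was chosen for being low, so nothing is read from that count.

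What members shared beyond the rule could be read from the IDs and counts alone. The 19 belonged to 17 components, and no 2 listed transcripts shared an assembly gene. An isoform number above 1 was carried by 5 members (26.3%), against 32.1% of the 13476. Another listed transcript of the same component existed for 11 members (57.9%), against 47.7%. A decimal count, the mark of an estimated value, occurred in 3 members, against 5.25% of the 13476 transcripts.

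Component c158841 was the only one with more than 1 member, and all 3 of its members moved together. Transcript c158841_g5_i1 stood at 2.70 CPM in full 2, against 31.7 in full 1, 59.9 in late full 1, 13.8 in abscission 1 and 42.3 in initial 2. Transcript c158841_g6_i1 stood at 1.66 CPM in full 2, against 16.6 in full 1, 25.7 in late full 1, 8.92 in abscission 1 and 20.9 in initial 2. Transcript c158841_g4_i1 stood at 1.30 CPM in full 2, against 14.5 in full 1, 27.2 in late full 1, 6.84 in abscission 1 and 19.1 in initial 2. The order of the 5 libraries was identical in the 3, with late full 1 at the top and abscission 1 next above full 2. Summed, they were 5.22-fold lower in full 2 than in abscission 1 (95% interval 4.24 to 6.47).

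Their proportions hardly moved while the total changed. Of the counts of the 3, c158841_g5_i1 held 47.7% in full 2 (95% exact binomial interval 38.1 to 57.5), and 50.4% in full 1, 53.1% in late full 1, 46.7% in abscission 1 and 51.4% in initial 2. The share of c158841_g4_i1 was 22.9% in full 2 (15.4 to 32.0) and between 23.1% and 24.1% in the other 4 libraries. The share of c158841_g6_i1 was 29.4% in full 2 (21.0 to 38.8), with 22.8% in late full 1 and 30.2% in abscission 1 as the extremes of the other 4. The intervals of c158841_g6_i1 in late full 1 (21.3 to 24.4) and abscission 1 (26.3 to 34.3) did not overlap, so the proportions were close but not constant. Transcripts of 1 component can share sequence, so the 3 may not be separate genes, and they are better read as 1 observation than as 3. In full 1 the counts were 328.01 for c158841_g6_i1 and 287.99 for c158841_g4_i1, so part of each was estimated. The counts of c158841_g5_i1 were all whole.

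The other 2 transcripts of that component with 3 CPM or more in the 4 libraries did not share the loss. Transcript c158841_g1_i1 stood at 251 CPM in full 2, against 270 in full 1, 248 in late full 1, 345 in abscission 1 and 241 in initial 2. Transcript c158841_g2_i1 had 7.64 CPM in full 2 and 5.89 to 11.1 in the 4 libraries. The sparse c158841_g7_i1, too low for the rule, had 0.312 CPM in full 2, against 1.72 in full 1, 2.16 in late full 1, 0.617 in abscission 1 and 1.74 in initial 2. Full 2 lay 6.93-fold below late full 1 for this transcript (95% interval 2.99 to 19.7) and 5.57-fold below initial 2 (2.43 to 15.7). Its profile had the outline of the 3 members, although its fold of 1.98 against abscission 1 had an interval from 0.671 to 6.52.

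**Figure D5:**
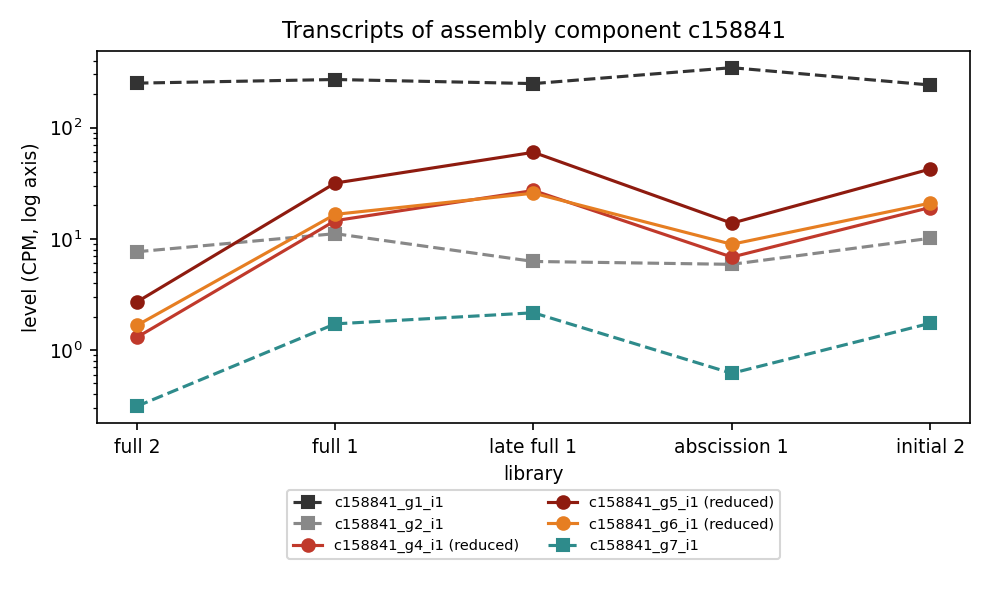
Level (CPM, log axis) of the 6 listed transcripts of component c158841 in 5 libraries, with the 3 reduced transcripts as solid lines. The 3 run in parallel from 1.30 to 2.70 CPM in full 2 to 25.7 to 59.9 CPM in late full 1, while c158841_g1_i1 stays between 241 and 345 CPM.

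Over all members, 24 other transcripts were listed in 9 of the 17 components, and 15 of them had 3 CPM in all 4 libraries. Full 2 over the lowest of the 4 ranged from 0.620 to 2.80 among these 15, with a median of 1.20, where all 13476 transcripts had a median of 1.44. By the rule none of the 15 could be 3-fold lower. Of the other transcripts with a member's component, c143179_g2_i1 stood at 42.4 CPM in full 2, against 35.4 in full 1, 37.9 in late full 1, 35.2 in abscission 1 and 37.8 in initial 2. The near-level course of c143179_g2_i1 contrasts with the 13.5-fold range of c143179_g3_i1. Among these 15 the lowest full 2 level relative to the 4 libraries was that of c161556_g2_i1, with 10.9 CPM in full 2, against 42.7 in full 1, 27.0 in late full 1, 17.6 in abscission 1 and 23.9 in initial 2. Its component member c161556_g3_i1 had 7.80 CPM in full 2, against 57.3 in full 1, 49.6 in late full 1, 24.6 in abscission 1 and 39.4 in initial 2. By CPM the pair shared a peak in full 1 and a low point in full 2, with a 3.16-fold gap below abscission 1 in c161556_g3_i1 (95% interval 2.62 to 3.83). The remaining listed transcript of that component, c161556_g1_i3, had higher CPM and lacked the low point in full 2. It had 333 CPM in full 2, against 686 in full 1, 340 in late full 1, 119 in abscission 1 and 483 in initial 2.

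The size of the set can be read against the same rule applied with another library in the low place. It gave 25 transcripts low in full 1, 23 in late full 1, 111 in initial 2 and 239 in abscission 1. The 19 of full 2 were the fewest of the 5 on the CPM scale. The median gap to the lowest of the other libraries was 4.19 for full 2, 4.45 for full 1, 3.87 for late full 1, 3.67 for abscission 1 and 3.89 for initial 2. The widest gap in full 2 was 9.35, where that in late full 1 was 91.6 and that in abscission 1 was 104. In the opposite direction, 320 transcripts were at least 3-fold higher in full 2 than in each of the 4. That count needed 3 CPM in full 2 only, so it drew on more transcripts than the losses did. No loss in full 2 had a gap as wide as the widest in late full 1 or abscission 1.

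How many transcripts met the rule depended on the scaling. TMM factors gave 33, DESeq2 size factors 34 and upper-quartile factors 35, and 14 of the 19 members met it under all 3. The 5 that did not were c143197_g1_i2, c156932_g3_i2, c161177_g2_i1, c162235_g1_i1 and c214914_g1_i1, each within 4-fold of its lowest library. The rule with another library in the low place gave, with TMM, 38 transcripts low in full 1, 41 in late full 1, 187 in initial 2 and 100 in abscission 1. Full 2 still had the fewest with TMM and DESeq2 factors, while with upper-quartile factors its 35 stood above the 31 of late full 1.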

How the data were processed

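Petal messenger RNA was sequenced in 6 libraries, 1 per group, each from 5 pooled replicates per the series' design text. The authors deposited estimated counts for 96596 transcripts of a de novo assembly, with no scaling, in which 36 to 855 values per library were not whole. The submitters' processing notes name CASAVA 1.7. Which programs assembled, aligned and counted the reads is not given in the sources used here. The handling of reads that fit several near-identical transcripts is likewise unstated.

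CPM is the count divided by the library total, as the rule for members requires. Columns were matched to samples by title, and 0 columns lacked a sample. Each fold carries a Clopper-Pearson interval from its 2 counts, and summed counts have exact Poisson intervals, for counting error only. A floor of 3 counts was used for counts of 0. For the sets low in another library it was used for all counts below 3, so gaps there that rest on the floor are lower limits. With 1 library per group no test was made. The rule and the intervals were run on simulated counts that held counting error only. The transcripts lowered there began well above the minimum level of the rule. The simulation therefore does not cover variation between libraries or members near that minimum.

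Counts were rounded for TMM and upper-quartile factors (edgeR 4.0.16), DESeq2 1.42.0 size factors in R 4.3.3, and thinning. Factors used transcripts with at least 1 CPM in a library. Full 2 had factors of 0.869 (TMM), 0.866 (DESeq2) and 0.938 (upper quartile). Other steps ran in Python 3.11.15 (SciPy 1.17.1, NumPy 2.4.6, pandas 2.3.3) and figures in matplotlib 3.10.9.

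Transcripts named were the 10 members with the highest average, the 8 with the largest gap to full 2, the 5 smallest and 5 largest round 1 ranges, and 2 on each side of the threshold at 10 CPM. This named 16 of the 19 members. The other 3 members, c162222_g2_i1 and the other transcripts of the components were named after their values were seen. Members and rules were chosen with earlier results of these data known.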

Additional observations from a re-analysis of the deposited data

Results flagged for a closer look

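The step from initial to full bloom went opposite ways in the 2 rounds for c161556_g3_i1. In round 1, full 1 exceeded initial 1 by 3.08-fold, at 57.3 CPM against 18.6 CPM, on 2 counts in initial 1. In round 2 it was lower in full 2 than in initial 2, at 7.80 CPM against 39.4 CPM, as the choice of members requires. The difference between the rounds was not tested, and the round 1 step has a 95% interval that includes 1 (0.851 to 25.5).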

How the results depend on the processing

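No paired analysis was possible because each group has 1 library. Of 69 summary values recomputed under other settings, 34 kept to their counting interval or to within 1.5 times their count, and 35 did not; the cause was not tested. The count of 19 members became 33 with TMM factors, 34 with DESeq2 size factors and 35 with upper-quartile factors. It became 124 at 2-fold, 10 at 4-fold, 109 with a minimum of 1 CPM, 3 with 10 CPM, 33 without full 1 in the rule, 501 without abscission 1, and 48 with TMM factors and the minimum on scaled values. Thinning to equal depth gave 22. In the 3 members with 10 CPM or more, the median round 1 range was 4.34 and the median of full 2 over the mean was 0.0732, where all 19 gave 2.33 and 0.114. The summed level in initial 1 was 221 CPM with TMM, 222 with DESeq2 and 74.4 without the 10 highest members. Transcripts low in full 1 numbered 38 with TMM and 45 with DESeq2, in late full 1 41 and 38, in initial 2 187 and 202, and in abscission 1 100 and 94, or 128 with upper-quartile factors. Members 2-fold lower in late full 1 than in full 1 became 0, and those 2-fold higher became 7, with all 3 scalings. Members 2-fold lower in abscission 1 than in full 1 became 3 with all 3, and than in late full 1 became 5 with TMM and DESeq2. In each of 57 single ratios of full 2 to the lowest library recomputed under a scaling, full 2 stayed lower, at up to 0.379. The median log2 ratio of full 2 to the mean of the 4 over all 13476 transcripts was -0.01 with CPM, 0.09 with TMM, 0.10 with DESeq2 and 0.01 with upper-quartile factors. Settings for the low sets, the neighbouring stages, the summed component, the sum without c143179_g3_i1 and the scaled minimum were chosen after the data were seen. With 12 to 150 counts per member in full 2, counting error alone limits 11 of 19 folds to intervals that include 3, and initial 1 resolves the sum only.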
